A study of Rattus norvegicus with 12 samples.

Results

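The genes described here encode nuclear subunits of respiratory complexes I, II, III and V of the inner mitochondrial membrane, together with proteins that assemble or regulate them. A gene was taken when an array probe set carried its symbol alone and the symbol began with Ndufa, Ndufb, Ndufc, Ndufs, Ndufv, Uqcr or Atp5, or was Sdha, Sdhb, Sdhc, Sdhd or Cyc1. The brightest probe set stood for each gene. This gave 70 genes, and all 70 lay above the filter on dim probe sets that left 10623 genes on the array. They comprised 34 subunits of complex I, 4 of complex II, 8 of complex III and 15 of complex V, which are 61 subunits in all. The other 9 were 6 assembly factors of complex I (Ndufaf1, Ndufaf3, Ndufaf4, Ndufaf5, Ndufaf7 and Ndufaf8), the related pair Ndufa4 and Ndufa4l2, and the ATP synthase inhibitor Atp5if1. Another 5 probe sets that fit these symbols listed several genes and were not used, so Ndufa10, Ndufs5, Uqcrb, Atp5mc1 and Atp5mc2 were not analysed here.

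Complex I oxidises NADH and passes the electrons to ubiquinone, and complex II does the same for electrons from succinate. Complex III moves them from ubiquinol to cytochrome c, and complexes I and III pump protons while they do so. Complex V, the ATP synthase, lets the protons return and makes ATP, which in the heart pays for contraction and calcium transport.

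Male Sprague-Dawley rats received either 1 intraperitoneal dose of streptozotocin, 65 mg per kg, which destroys insulin-producing beta cells, or citrate buffer at an age of 8 weeks, and no group had its blood glucose controlled. After another 10 weeks the left anterior descending coronary artery was ligated without reperfusion, and left ventricular free wall away from the infarct was taken 1, 7, 14, 28 or 56 days later. A sham-operated group stood beside both the diabetic and the non-diabetic rats. RNA of 3 rats was pooled for an array, and every combination of diabetes and time was 1 array, 12 in all. The labelled ages were 18 weeks for the sham and day 1 groups, 19 for day 7, 20 for day 14 and 22 for day 28. On day 56 the diabetic group was labelled 26 weeks and the non-diabetic group 22. The label of the non-diabetic array conflicts with the schedule above, so that array is also left out where it matters. There were no replicate arrays, and every p-value below measures how steadily a difference recurred between the diabetic and non-diabetic arrays or over time points.

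All values are log2 of the deposited probe set intensity plus 16, and 1 unit is a doubling on that scale. The 4 arrays of days 1 and 7 had a log2 difference between the 3' and 5' probe sets of beta-actin of 0.98 to 1.00, a measure of RNA or labelling quality, against 0.37 to 0.59 on the 8 others. For Gapdh the first-week arrays had a difference of 0.32 to 0.36, within the 0.11 to 0.48 of the rest. All 12 cardiomyocyte markers on the array lay above the filter, with a summed intensity of 54300 to 72100 over the 12 arrays. Fibroblast markers summed to 6270 to 25000, with both day 7 arrays at 24200 and above, and macrophage markers to 968 to 8170. Endothelial markers summed to 2390 to 3440 on non-diabetic and 2090 to 2760 on diabetic arrays, lower in the diabetic array of every pair. Atrial markers summed to 3040 to 8430 and 6740 to 9060, higher in the diabetic array of every pair but day 28. The part of these markers in the results was not tested. In whole tissue, fewer cardiomyocytes and less RNA per cardiomyocyte cannot be told apart.

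The probe sets of the 61 subunits were bright, with means over the 12 arrays from 10.44 to 12.52, at the 96.1th to 99.8th percentile of all genes. Those of the 6 assembly factors were dimmer, at 6.21 to 9.90. Brightness depends on the probes as well as on RNA, so these ranks give the signal and not an order of RNA amounts. The map of all genes by array sets these signals side by side.

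**Figure D1:**
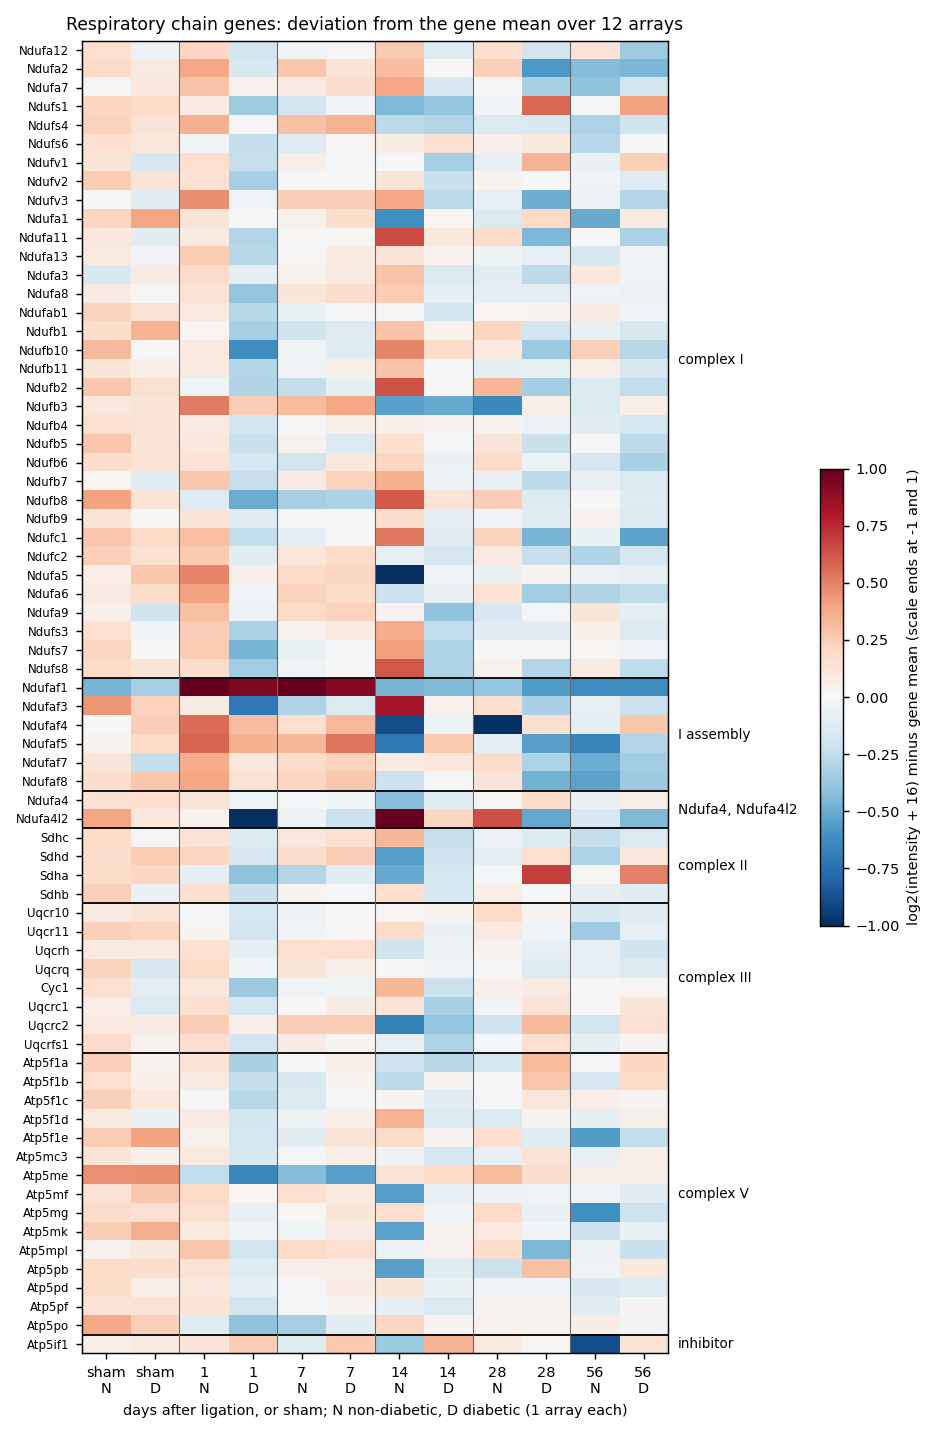
Each row is 1 of the 70 genes and each column 1 array, with colour for the deviation of log2(intensity + 16) from the gene's mean over the 12 arrays and colours capped at -1 and 1. Ndufaf1 was above its mean on all 4 arrays of days 1 and 7, and the diabetic day 1 column is blue for most subunits.

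In diabetic myocardium most complex I transcripts had a slightly lower signal over the 6 pairs, and no member passed the test. Of 34 complex I subunits, 29 had a fitted diabetic minus non-diabetic difference below 0, with a median of -0.14. In complex III 7 of 8 lay below 0 (median -0.07), in complex V 8 of 15 (median -0.04) and in complex II 2 of 4 (median -0.02). Over all genes 51.9% lay below 0, with a median of -0.01. Among other genes with signals at or above the 90th percentile 53.5% did, with a median of -0.02. With quantile normalization or with array medians set equal, complex I stayed at 29 of 34, while complex V went to 12 and 10 of 15. In single pairs the number of complex I subunits lower in the diabetic array ran from 34 of 34 on day 1 to 6 of 34 on day 7.

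By limma's adjusted p, 0 of the 70 members were called in this comparison, against 0.376% of all probe sets. At an unadjusted p under 0.05 there were 3 members with a higher and 11 with a lower value, against 10.6% of all probe sets in either direction. Of the 11, 9 were complex I subunits, and these were Ndufb10, Ndufc1, Ndufs8, Ndufa11, Ndufa2, Ndufv3, Ndufa12, Ndufb8 and Ndufb5. The other two were the assembly factor Ndufaf3 and Ndufa4l2. The 3 with a higher value were Ndufa1, Ndufaf4 and Atp5if1, and a dimmer probe set of Atp5if1 had the opposite sign.

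Ndufb10, an accessory subunit of the proton-pumping membrane arm, had the lowest complex I difference, -0.40 ± 0.11 (SE, 6 pairs; limma adjusted p = 0.209). Its signal was 11.28 to 11.80 on the 6 non-diabetic arrays (median 11.48) and 10.69 to 11.51 on the 6 diabetic ones (median 11.11). The ranges overlapped, yet the diabetic array was the lower one in all 6 pairs, with differences of -0.32 in sham, -0.71 on day 1, -0.09 on day 7, -0.29 on day 14, -0.47 on day 28 and -0.51 on day 56. The promoter of Ndufb10 on chr10:14255917-14256216 of the RefSeq assembly GRCr8 (minus strand) is printed with those of the other leading genes.

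Among all 70 members, 7 were lower in the diabetic array of all 6 pairs: Ndufa2, Ndufa11, Ndufb5, Ndufb10, Ndufa4l2, Sdhb and Uqcrq. Of all probe sets 3.81% were. No member was higher in all 6. With array medians set equal the day 7 pair turned to 0.05 for Ndufa11 and 0.01 for Sdhb, which left 5 of the 7. With quantile normalization all 7 stayed.

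Ndufa4l2, a paralogue of Ndufa4 that hypoxia is known to induce, had the lowest value of all members, -0.72 ± 0.19 (SE, 6 pairs; limma adjusted p = 0.198). The non-diabetic arrays ran from 6.92 to 8.38 (median 7.30) and the diabetic arrays from 5.77 to 7.29 (median 6.76). The gap was wide in the pairs of day 1 (-1.35), day 14 (-1.10) and day 28 (-1.17) and small in the pairs of sham (-0.28), day 7 (-0.16) and day 56 (-0.27). Ndufa4l2 overlaps Shmt2 in RefSeq, and the Shmt2 probe set differed by 0.09 between diabetic and non-diabetic arrays (limma adjusted p = 0.873). Ndufa4 itself, which is found with cytochrome c oxidase, differed by 0.07 ± 0.09.

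Sdha, the flavoprotein that oxidises succinate, had 0.24 ± 0.14 (limma adjusted p = 0.565), and its iron-sulphur partner Sdhb had -0.19 ± 0.09 (adjusted p = 0.524). In complex III the core protein Uqcrc2 had the highest value, 0.16 ± 0.11, and cytochrome c1 (Cyc1) the lowest, -0.20 ± 0.11. In the F1 head of the ATP synthase, where ATP is made, the alpha subunit Atp5f1a had 0.01 ± 0.12 and the beta subunit Atp5f1b 0.11 ± 0.11. Atp5if1, the protein that blocks the synthase when it would run backwards, had 0.36 ± 0.16 (adjusted p = 0.453). That is its brightest probe set. A dimmer one had -0.27 and another 0.21, both above the filter, so the direction depended on the probe set. On the brightest one the non-diabetic day 56 array, at 9.64, was the lowest of the 12, against 10.66 in the diabetic partner.

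**Figure D2:**
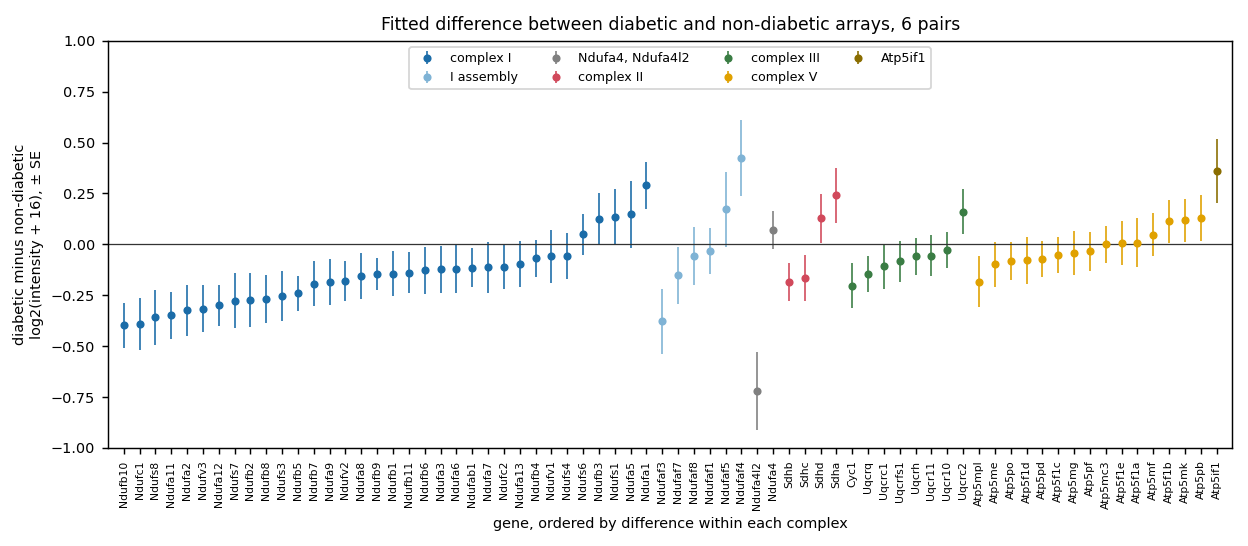
Points are the fitted diabetic minus non-diabetic difference of each gene on the log2(intensity + 16) scale, bars are standard errors from limma over 6 pairs, and colours give the complex. Complex I values run from -0.40 for Ndufb10 to 0.29 for Ndufa1, with 29 of 34 below 0, here and under both other scalings.

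Single pairs departed from the average over pairs. Each is 1 array against 1 and carries no test, so a pattern over time cannot be told apart from scatter between arrays. On day 1 all 61 subunits were lower in the diabetic array, from -0.72 to -0.13 with a median of -0.34, and all 6 assembly factors were too. Over all genes 62.1% were lower on that day with a median of -0.10, and among other genes with signals at or above the 90th percentile 67.3% were, with a median of -0.17. The count stayed at 61 of 61 under quantile normalization (median -0.28) and with array medians set equal (median -0.28). Beyond these complexes, 12 of 12 enzymes of the tricarboxylic acid cycle, 13 of 14 complex IV subunits and 10 of 12 cardiomyocyte markers were also lower in that array. Cardiomyocyte markers summed to 54300 there against 66100 in its partner. Their median difference was -0.22, and the widest gap was that of the myosin gene Myh6, at 10.82 against 12.47. Over the 6 pairs Myh6 had -0.73 ± 0.15 (limma adjusted p = 0.0908), so the sum does not give cardiomyocyte content alone. Neutrophil markers summed to 1910 in the diabetic day 1 array against 824. The part of these in the result was not tested.

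On day 7 the order was turned, with 48 of 61 subunits higher in the diabetic array by a median of 0.05 (42 with quantile normalization and 54 with array medians set equal). These differences were small, from -0.18 to 0.29, and over all genes 52.2% were lower (median -0.01). In the sham pair, again 1 array against 1, 46 of 61 subunits were lower with a median of -0.09, against 56.3% of all genes (median -0.04) and 60.7% of the other bright genes (median -0.05). On day 14, 44 of 61 were lower with a median of -0.19, against 47% of all genes (median 0.05). The spread of that pair was widest, from -0.93 for Ndufs8 to 1.02 for Ndufa5.

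**Figure D3:**
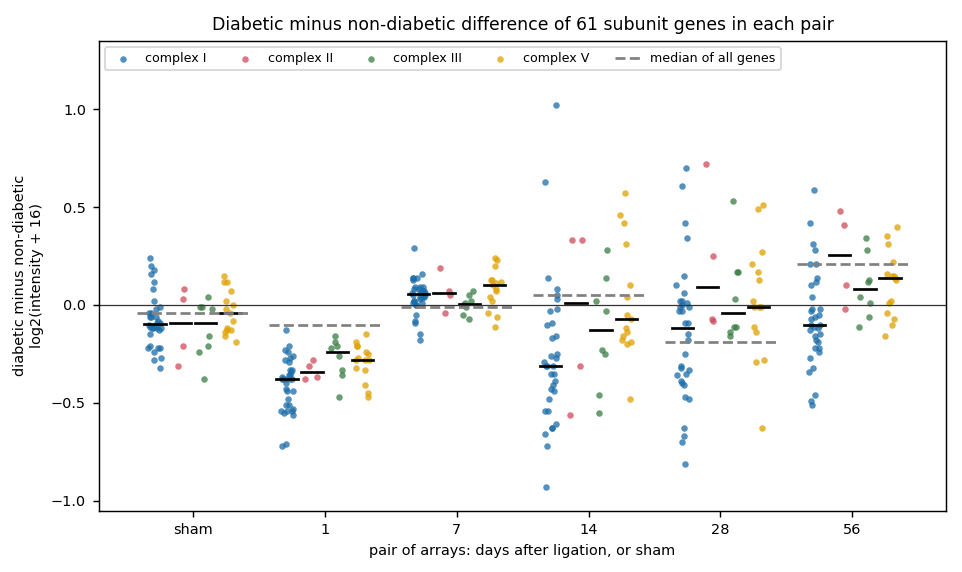
Each point is 1 of the 61 subunit genes in 1 pair of arrays, placed by its diabetic minus non-diabetic difference in log2(intensity + 16), with black bars for the median of each complex and dashed lines for the median of all genes. All points of day 1 lie below 0, under each of the 3 scalings, and complex I spreads from -0.81 to 0.70 on day 28.

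The pairs of days 28 and 56 differed as whole arrays. On day 28, 63.7% of all genes were lower in the diabetic array (median -0.19), and on day 56 it was 28.3% (median 0.21). Of the subunits 37 of 61 were lower on day 28 (median -0.03) and 31 of 61 on day 56 (median -0.02). On day 28 fibroblast markers summed to 6980 in the diabetic array against 17700, with 7 of 8 lower (median -2.03), and 9 of 9 macrophage markers were lower (median -1.25). On day 56 all 8 fibroblast markers (median 0.73) and all 9 macrophage markers (median 0.77) were higher in the diabetic array. Cardiomyocyte markers were higher for 10 of 12 genes in both pairs, with sums of 72100 against 62400 on day 28 and 71800 against 69100 on day 56. On day 28 their median difference was 0.10, and the widest gap was that of Ttn, at 12.51 against 10.35. Ttn also read 12.52 on both day 56 arrays, against 10.11 and 10.53 on day 14, non-diabetic first. Ryr2 read 11.60 against 10.80 on day 28 and 11.81 against 11.88 on day 56. For these genes, picked after their values were seen, the diabetic day 28 array resembled both day 56 arrays more than its partner. Sdha differed, with 11.31 on the non-diabetic day 28 array and 11.34 on the non-diabetic day 56 array. Whether these gaps come from diabetes was not tested. The part of these cell type markers in the subunit values was not tested.

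In both pairs 18 of 34 complex I subunits were lower in the diabetic array and 5 were higher, whereas in complex V 2 of 15 were lower and 5 higher. The 5 of complex I were Ndufs1, Ndufv1, Ndufs6, Ndufa1 and Ndufb3. Under quantile normalization the complex I counts were 19 and 5 and those of complex V 2 and 4, and equal array medians gave 23 and 5, and 4 and 5. The late pairs were not compared by a test between complexes. The share of all genes with the same sign in both pairs was not counted, so these counts stand without a background.

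Sdha had the highest mean difference of these 2 pairs among the 61 subunits, with 12.02 against 11.31 on day 28 and 11.83 against 11.34 on day 56, the diabetic array first. Ndufs1, the large iron-sulphur subunit at the tip of complex I, had 11.68 against 11.07 and 11.51 against 11.09. Both genes had lower values in the diabetic array of day 1, with differences of -0.31 for Sdha and -0.43 for Ndufs1. Uqcrc2 had 12.22 against 11.69 and 12.05 against 11.71, and Ndufv1, which holds the NADH-binding site, 11.90 against 11.48 and 11.80 against 11.50. The difference of Atp5f1a was 0.49 on day 28 and 0.22 on day 56, and all of these kept their sign under both other scalings.

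The other high values included small membrane-arm subunits, Ndufa1 with differences of 0.34 and 0.59 and Ndufb3 with 0.70 and 0.21. The lowest mean difference was that of another membrane-arm subunit, Ndufc1, which had 10.92 against 11.61 on day 28 and 10.85 against 11.32 on day 56. Ndufb10 followed with differences of -0.47 and -0.51, and Ndufa11 with -0.63 and -0.32. The matrix-arm subunits Ndufa12, Ndufa2 and Ndufs8 had -0.36 and -0.49, -0.81 and -0.02, and -0.33 and -0.34. Atp5mpl of complex V had -0.63 and -0.16. Low and high values thus both came from the membrane arm as well as the matrix arm. Labelled age differed within the day 56 pair, although both groups followed the same schedule of injection, ligation and sampling. The non-diabetic array carried the 22-week label of day 28, so its label or its day may be wrong. A difference in age or day cannot be told apart from diabetes there.

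The tricarboxylic acid cycle enzymes, which supply NADH and succinate to the chain, were higher in the diabetic array for 12 of 12 genes on day 28 (median 0.35) and for 12 of 12 on day 56 (median 0.25). The medians of all genes were -0.19 and 0.21, so the day 56 value lay near the background. Cardiomyocyte markers, 10 of 12 higher on both days, had medians of 0.10 and 0.08. On day 28 the count held under both other scalings. On day 56 it was 9 of 12 with quantile normalization and 11 of 12 with array medians set equal. A test of whether the diabetic minus non-diabetic difference changed between days 1 and 7 and the other times called 0 of the 70 members by limma's adjusted p and 0 at an unadjusted p under 0.05. Of all probe sets 0% and 4.04% were called.

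After ligation the comparison of each day with sham rests on the same 2 sham arrays, so the 5 days are not independent. On day 1, 1 member rose and 1 fell, against 4.2% and 3.27% of all probe sets. On day 7 the count was again 1 and 1, against 4.67% and 2.97%. The same 2 genes were called on both days: Ndufaf1, a chaperone of early complex I assembly, and Atp5me, the small e subunit in the membrane part of the ATP synthase that takes part in pairing synthases into dimers. On days 14, 28 and 56 no member and 0% of probe sets passed. At an unadjusted p under 0.05 there were 12 members on day 14, 0 on day 28 and 11 on day 56, all with lower values. The shares of all probe sets, in either direction, were 11.7%, 3.62% and 16.4%. Of 10623 genes, 756 had higher and 560 lower values at that cut on day 14. On day 56 it was 342 and 1373, so lower values were the more common ones there among all genes too.

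Ndufaf1 read 5.74 and 5.88 in sham, non-diabetic first, then 7.26 and 7.14 on day 1 and 7.21 and 7.13 on day 7. It read 5.74 and 5.77 on day 14, 5.82 and 5.65 on day 28, and 5.58 and 5.58 on day 56. In sham and from day 14 on the gene was dim, not far above the filter at 5.20. Its intensity there was 31.72 to 42.82, near the array medians of 28.8 to 34.7. The 4 arrays of days 1 and 7 lay above the other 8 with no overlap. The rise over sham was 1.39 ± 0.20 on day 1 (SE, 2 arrays against 2; limma adjusted p = 0.00248) and 1.36 ± 0.20 on day 7 (adjusted p = 0.00303), and it passed in all 13 alternative settings. Those 4 arrays are also the 4 with the high beta-actin difference, whose part in the result was not tested. In RefSeq Ndufaf1 overlaps Nusap1, a mitotic spindle gene, whose own probe set had -0.12 on day 1 (adjusted p = 0.833) and rose by 1.47 on day 7 (adjusted p = 0.0141).

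Atp5me showed the opposite course. It read 11.36 and 11.37 in sham, 10.66 and 10.25 on day 1, and 10.47 and 10.36 on day 7. From day 14 on it lay between 10.96 and 11.22, and again the 4 arrays of days 1 and 7 did not overlap the other 8. The change from sham was -0.91 ± 0.19 on day 1 (SE, 2 arrays against 2; limma adjusted p = 0.0194) and -0.95 ± 0.19 on day 7 (adjusted p = 0.0156), and it passed in all 13 alternative settings. A second probe set of Atp5me lay below the filter. Atp5po, which joins the head to the peripheral stalk, came next within complex V, with -0.57 ± 0.16 on day 1 (adjusted p = 0.0605) and -0.52 ± 0.16 on day 7 (adjusted p = 0.0753).

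**Figure D4:**
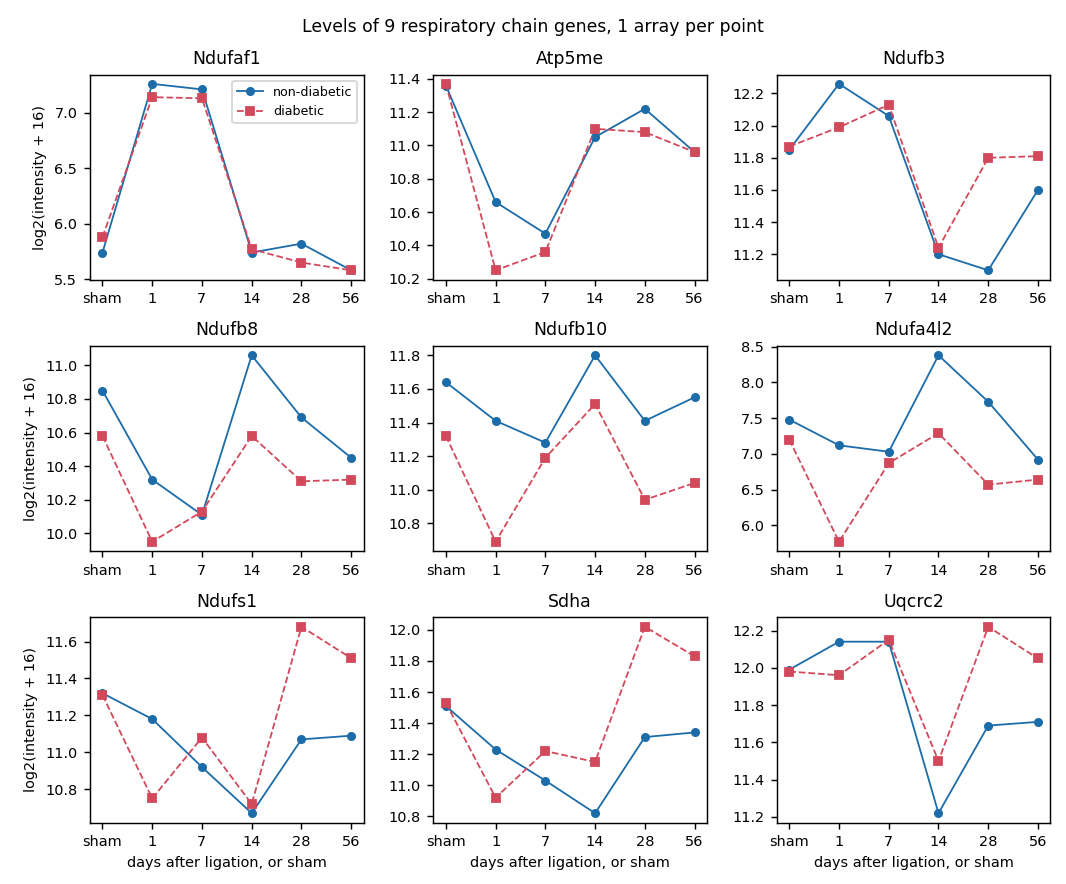
Each panel shows the log2(intensity + 16) of 1 gene on the 12 arrays, in sham and on days 1, 7, 14, 28 and 56, with circles for non-diabetic and squares for diabetic pools; the vertical scales differ and do not start at 0. Ndufaf1 lies above 7.1 only on days 1 and 7 and Atp5me below 10.7 only there, while Sdha and Ndufs1 show the diabetic arrays above on days 28 and 56.

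Promoter windows of the members that led a comparison are given here, from 250 bases before to 50 bases after the transcript start, read 5' to 3' from RefSeq's GRCr8 assembly. Capitals mark letters matched by any of 5 short motifs on either strand, and where 2 matches share letters the capitals run together. Atp5me lies on chr14:1464610-1464909 (plus strand), Ndufaf1 on chr3:127103971-127104270 (minus strand), Ndufb3 on chr9:67623167-67623466 (plus strand) and Ndufb10 at the position given above.
Atp5me: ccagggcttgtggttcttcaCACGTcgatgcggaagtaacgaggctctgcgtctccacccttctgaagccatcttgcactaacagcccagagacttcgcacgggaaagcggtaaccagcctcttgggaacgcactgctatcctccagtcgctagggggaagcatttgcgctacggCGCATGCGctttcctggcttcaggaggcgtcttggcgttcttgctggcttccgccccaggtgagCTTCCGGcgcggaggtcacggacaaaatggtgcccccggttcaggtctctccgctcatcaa
Ndufaf1: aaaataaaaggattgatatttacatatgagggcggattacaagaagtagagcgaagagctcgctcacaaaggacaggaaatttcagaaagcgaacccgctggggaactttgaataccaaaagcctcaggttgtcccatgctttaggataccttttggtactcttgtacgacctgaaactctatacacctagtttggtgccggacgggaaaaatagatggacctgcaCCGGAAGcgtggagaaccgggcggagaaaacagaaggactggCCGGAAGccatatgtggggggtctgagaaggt
Ndufb3: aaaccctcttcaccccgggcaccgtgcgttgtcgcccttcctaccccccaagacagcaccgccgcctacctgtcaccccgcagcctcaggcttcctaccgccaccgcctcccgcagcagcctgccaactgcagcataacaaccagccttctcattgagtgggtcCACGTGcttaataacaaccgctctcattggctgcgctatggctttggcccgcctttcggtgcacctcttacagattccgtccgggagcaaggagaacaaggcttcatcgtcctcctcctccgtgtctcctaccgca
Ndufb10: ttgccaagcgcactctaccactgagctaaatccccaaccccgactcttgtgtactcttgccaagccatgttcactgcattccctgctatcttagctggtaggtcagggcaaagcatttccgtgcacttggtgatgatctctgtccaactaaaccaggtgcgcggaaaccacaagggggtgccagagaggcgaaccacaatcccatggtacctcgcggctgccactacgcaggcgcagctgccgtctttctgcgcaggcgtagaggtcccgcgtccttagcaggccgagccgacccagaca

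The motifs were the NRF1 core CGCATGCG, the ETS core CCGGAAG bound by GABP, the estrogen-related receptor core AAGGTCA, the YY1 core ATGGCGG and the hypoxia response core ACGTG. Factors that bind the first 4 are known to act on nuclear genes of the respiratory chain. Atp5me held the NRF1 core from position -75, the ETS core from -11 on the reverse strand and the hypoxia core from -230. Ndufaf1 held the ETS core at -24 and again at 19. In Ndufb3 the capitals are the hypoxia core read on both strands, and Ndufb10 held none of the 5.

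A window was found for 65 of the 70 members and compared with 27457 windows of the same length. The NRF1 core stood in 12.3% of the members' windows and 1.81% of all. For the ETS core the shares were 29.2% and 9.22%, for the estrogen-related receptor core 15.4% and 4.37%, and for the YY1 core 26.2% and 5.22%. The hypoxia core was in 23.1% and 19.7%. The members' shares differed by complex. The NRF1 core was in 1 of 32 complex I windows (3.12%), 4 of 14 in complex V and 2 of 6 of the assembly factors. The estrogen-related receptor core was in 9.38% of complex I and 35.7% of complex V windows. For the YY1 core it was 34.4% and 14.3%, and for the ETS core 21.9% and 35.7%. The differences between complexes were not tested. A match describes letters in the window, and no binding was measured.

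The median of the 61 subunits was -0.16 on day 1, -0.08 on day 7, -0.10 on day 14, -0.16 on day 28 and -0.19 on day 56, while the median of all genes was 0.09, 0.16, 0.05, 0.03 and -0.19. On day 56 the subunits and all genes had the same median. With quantile normalization the subunit medians were -0.095, -0.025, -0.020, -0.107 and -0.033, beside -0.010, -0.022, 0.045, -0.018 and -0.116 for all genes, so most of the gap to all genes on day 7 depended on the scaling. In complex V all 15 subunits were below 0 on day 1 (median -0.18) and all 15 on day 56 (median -0.21), against 11 and 10 of 15 with quantile normalization. Within complex V the epsilon subunit Atp5f1e had the lowest day 56 value, -0.72 ± 0.19 (limma adjusted p = 0.162).

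By condition, 57 of 61 subunits were below their sham array on day 1 in diabetic hearts, with a median of -0.28, where 47.1% of all genes were and their median was 0.05. In non-diabetic hearts it was 36 of 61 with a median of -0.02, where 36.1% of all genes were and their median was 0.14. Each of these values sets 1 array against 1, and the gap between the conditions was not tested. On day 14 the largest differences came from the non-diabetic array. Ndufa5, a matrix-arm subunit, read 10.00 there against 10.98 to 11.54 on the other 11 arrays, and Uqcrc2 read 11.22 against 11.50 to 12.22. Ndufaf4 read 7.97 on that array and 7.83 on the non-diabetic day 28 array, against 8.76 to 9.41 on the other 10.

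The mean of days 14, 28 and 56 minus the mean of days 1 and 7 called more members, 3 higher and 9 lower, against 11.7% and 23% of all probe sets. Read against that background, 3 of 70 is 4.29% and 9 of 70 is 12.9%, both below the share of all probe sets. The 3 that rose were Atp5me, the membrane-arm subunit Ndufb8 and Atp5po. The 9 that fell were 4 of the 6 assembly factors (Ndufaf1, Ndufaf5, Ndufaf4 and Ndufaf8), the complex I subunits Ndufb3, Ndufs4, Ndufa6 and Ndufv3, and Uqcrc2. The median over the 61 subunits was -0.03, above the -0.17 of all genes, and it turned to 0.03 with quantile normalization and 0.02 with array medians set equal. Those scalings called 7 higher and 4 lower, and 4 higher and 7 lower, among the 70, and over all probe sets 3165 higher and 2895 lower, and 2582 higher and 3900 lower, where the unscaled values gave 2170 and 4280.

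Ndufaf1 fell by 1.49 ± 0.13 on the log2 scale (SE, 6 arrays against 4; limma adjusted p = 2.14e-05). Ndufaf5, which modifies a complex I subunit during assembly, fell by 0.79 ± 0.20 (adjusted p = 0.0136), with 6.51 to 7.48 on the later arrays and 7.55 to 7.80 on days 1 and 7. Ndufb3, a membrane-arm subunit, fell by 0.65 ± 0.14 (adjusted p = 0.00522), from 11.99 to 12.26 in the first week down to 11.10 to 11.81, without overlap. Ndufs4, which completes the NADH-oxidising tip, fell by 0.47 ± 0.13 (adjusted p = 0.0161), and its later arrays at 10.32 to 10.49 lay below its first-week arrays at 10.63 to 10.99. The sham arrays, non-diabetic first, read 10.86 and 10.76 for Ndufs4, within its first-week range. For Ndufaf5 they read 7.26 and 7.42 and for Ndufb3 11.85 and 11.87, below the first-week ranges of these genes. Atp5me rose by 0.62 ± 0.12 (adjusted p = 0.00365) and Ndufb8 by 0.44 ± 0.13 (adjusted p = 0.0259).

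**Figure D5:**
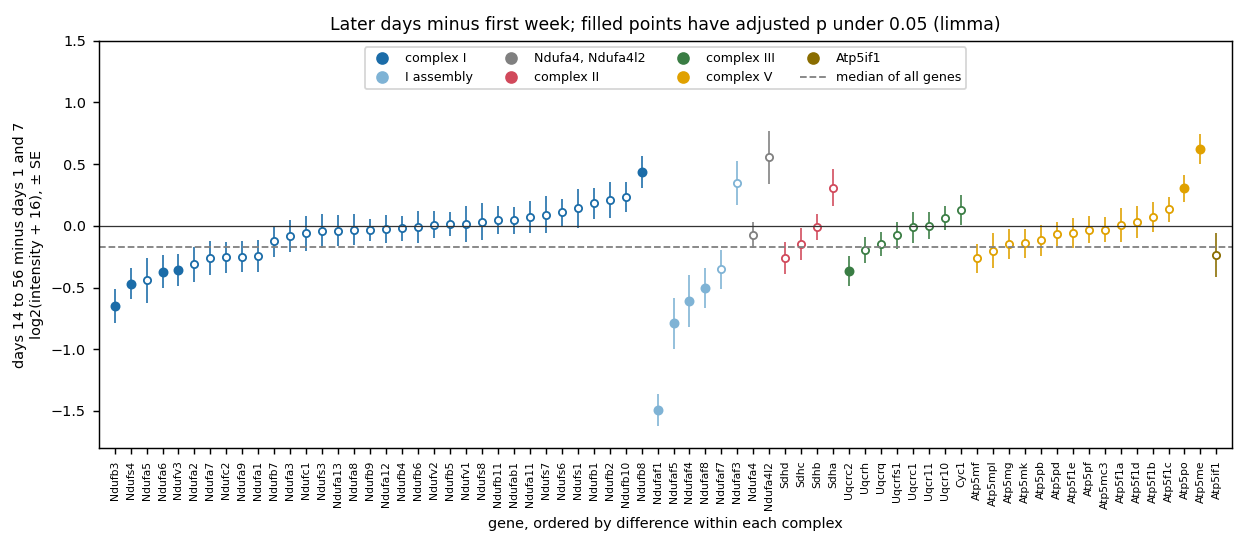
Points are the mean of days 14, 28 and 56 minus the mean of days 1 and 7 for each gene in log2(intensity + 16), bars are standard errors from limma, filled points passed an adjusted p of 0.05 and the dashed line is the median of all genes. Filled points are 9 below 0, led by Ndufaf1, and 3 above 0, led by Atp5me; with quantile normalization the split is 4 below and 7 above.

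This count of 12 depended on single pairs of arrays. Without the sham pair, which changes only the spread, 5 members were called, without day 1 it was 4, without day 7 it was 3 and without day 56 it was 7. Leaving out the non-diabetic day 56 array alone gave 6. Ndufaf1, Atp5me and Ndufb3 passed in all 15 alternatives and Ndufs4 in 14, whereas Ndufv3 passed in 3, Ndufa6 in 5, Uqcrc2 in 6 and Atp5po in 7. The comparison sets the 4 arrays with the high beta-actin difference against 6 with a lower one, and the part of that difference was not tested. Second probe sets went against 2 of the calls. Ndufv3 had 0.70 on its second probe set where the chosen one had -0.36, and Uqcrc2 had 0.08 where the chosen one had -0.37.

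Counts for genes of the same pathway outside these complexes are read against the same background, 0.376% of probe sets in diabetes and 11.7% higher and 23% lower in the later days minus the first week. Among 14 complex IV subunits 1 was called in diabetes, the heart and muscle isoform Cox7a1, which fell by 1.43 ± 0.21 (SE, 6 pairs; limma adjusted p = 0.0165). Cox5a rose by 2.71 ± 0.25 on day 1 (adjusted p = 0.000189) and by 2.45 ± 0.25 on day 7 (adjusted p = 0.000369). It read 9.65 to 10.21 on those 4 arrays and 6.94 to 8.12 on all others. Those 4 arrays are the ones with the high beta-actin difference, whose part was not tested. In the later days minus the first week 0 of the 14 complex IV subunits were called higher and 3 lower. For the 12 tricarboxylic acid cycle enzymes the counts were 0 in diabetes, and 2 higher and 2 lower in the later comparison. Among 25 further assembly factors of the chain, 0 were called higher and 6 lower in the later days minus the first week. Tmem70, which serves assembly of the ATP synthase, rose by 1.38 ± 0.22 on day 1 (adjusted p = 0.00529) and by 1.44 ± 0.22 on day 7 (adjusted p = 0.00469), on the same 4 arrays as Ndufaf1. Among 17 regulators 1 was called higher, the receptor Esrra with 0.64 ± 0.19 (adjusted p = 0.0216), and 6 lower. In diabetes Ppargc1a, the coactivator of mitochondrial biogenesis, had 0.50 ± 0.29 (adjusted p = 0.571), and 0 of 17 regulators were called.

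Levels of subunits moved together over the 12 arrays, which share their processing and pools. After each array's median was taken off, the median Pearson correlation between 2 genes was 0.57 within complex I, 0.38 within complex II, 0.60 within complex III and 0.56 within complex V. Between complexes it ran from 0.48 to 0.66, and for all pairs of genes on the array it was 0.01. The subunits are all bright, and the correlation among other bright genes was not computed, so 0.01 is not a background of like signal. The values within complexes overlapped those between them. Ndufv2 had the highest median correlation to the subunits, 0.75. Among subunits Ndufa5 had -0.02 and Uqcrc2 0.09, and the assembly factors Ndufaf1 and Ndufaf5 had -0.42 and -0.41. These are descriptions over 12 arrays.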

How the data were processed

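The authors deposited 1 linear intensity per probe set and array, and the submitters' processing notes name Affymetrix Expression Console and PLIER; their versions, background correction and scaling are details not given in the sources used here. A pool of 3 rats is 1 sample. Intensities were used as log2(intensity + 16), which makes changes of dim genes look smaller. Those with a mean above the 40th percentile of the non-control probe sets, 5.20, were kept, which left 18625 for testing. For genes with several probe sets the brightest was used.

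Tests used limma 3.58.1 in R 4.3.3, with time point (6 levels) and diabetes in 1 model of 12 arrays and 5 residual degrees of freedom, a variance trend, and Benjamini-Hochberg adjustment over 18625 probe sets at 0.05. The time point pairs the arrays; the labels give no replicate numbers. The fits were tested on simulated data. Genes were named when they passed a test or had the largest or smallest change in their complex, beside a fixed list of core subunits; single-array readings and genes at unadjusted p under 0.05 were chosen after their values were seen. The members and gene lists were chosen with earlier results of these data known. Alternatives were offsets of 1 and 64, quantile normalization, equal array medians, no filter or the 60th percentile, no variance trend, the mean of all probe sets of a gene, each pair left out, the non-diabetic day 56 array left out, and days 1 and 7 or the other times alone. For the sham arrays the protocol's sham operation was followed, although their tissue label names an infarct. The number of arrays limits the precision. Promoter windows come from a RefSeq table (GRCr8); no protein sequences were used.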

Additional observations from a re-analysis of the deposited data

How the results depend on the processing

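Complex I kept 27 to 34 of 34 subunits below 0 in diabetes over 17 alternatives, and 0 members were called in all of them. The median over members minus that of all genes went from -0.211 to -0.073 on day 1 and from -0.241 to -0.008 on day 7 with quantile normalization. For the later days minus the first week (0.134) it was 0.171 with an offset of 1, 0.075 with 64, 0.037 with quantile normalization, 0.162 with the 60th percentile filter, 0.115 with the mean of all probe sets, 0.093 without the non-diabetic day 56 array and 0.056 to 0.171 with pairs left out. Members called there numbered 3 to 13 with pairs left out and 6 without the non-diabetic day 56 array, against 12. On day 56 the count was 0 to 1 with pairs left out, 1 without the day 28 pair. The median for the change of the diabetes difference in the first week (0.014) ran from -0.159 to 0.153 with pairs left out, and Atp5po from -0.176, without the day 7 pair, to 0.336. Values near 0 changed sign by less than their standard error in several settings. In diabetes the sign was kept in 10 of 17 alternatives for Atp5mc3 (0.001) and in 11 of 17 for Atp5f1a (0.009). On day 56 it was kept in 11 of 13 for Atp5f1d (-0.035). Only turns larger than the standard error are listed from here on. Signs turned in that way for Atp5mc3 on day 1 with quantile normalization (0.068). They also turned with the mean of all probe sets for Uqcrc2 on day 1 (-0.157) and day 7 (-0.031) and Ndufv3 on day 7 (-0.196) and in the later days minus the first week (0.171), since their probe sets disagree. With days 1 and 7 alone, the diabetes difference turned for Ndufa1 (-0.002), Sdha (-0.059), Uqcrc2 (-0.088), Atp5pb (-0.133), Ndufs1 (-0.137), Atp5f1a (-0.20), Atp5f1b (-0.068) and Ndufa4 (-0.090). Apart from the probe set means, the cause was not tested. The labels give no replicate numbers, and the model pairs the arrays by time point throughout.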
